A study of Mus musculus with 2 samples.

Results

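Notch signalling was described through 10 of the 27998 genes listed in 2 libraries of single retinal cells, dissociated from the periphery of the mouse retina at P8 (postnatal day 8). The genes were chosen by symbol and comprise the ligands Dll1, Dll3, Dll4 and Jag1, the sugar transferase Mfng, the receptor Notch1, the DNA-binding effector Rbpj, and the basic helix-loop-helix genes Hes1, Hes5 and Hes6. The DKO-Skp2+/- library came from mice of the genotype alphaCre, Rbf/f, p107-/-, skp2+/-, which the labels call tumor-resistant. The DKO library came from alphaCre, Rbf/f, p107-/- mice, which the labels call tumor-prone, so both groups carry the Cre driver, the floxed Rb alleles and the p107 null. The series title asks about cell cycle duration and the capacity for transformation. The dissected area is the one in which the alpha-Cre driver is active, so Rb is floxed in every cell but removed only where Cre acts. How many animals each library pools is not given in the sources used here. Each genotype has 1 library, so no difference between them has a replicate check and no test was made. The 95% intervals given throughout cover counting error only and treat the unique molecular identifiers (UMIs, 1 per captured transcript) of a cell as independent.

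Notch is a receptor that is cleaved when it binds a Delta or Jagged ligand on a neighbouring cell. Its freed intracellular part joins Rbpj on DNA and switches on Hes1 and Hes5, repressors of the genes that push a progenitor towards a neuron. In the developing retina, cells about to become neurons display Delta ligands, and the neighbours that receive the signal stay progenitors or become Müller glia, the resident glial cells. Dll3 differs from the other ligands in that it stays largely inside the cell and does not activate Notch on neighbours, and Hes6 is not a repressor of the Hes1 kind but promotes neuronal differentiation and opposes Hes1.

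The DKO-Skp2+/- library held 5196 cell barcodes with a median of 3874 UMIs, and the DKO library held 3621 barcodes with a median of 4939 UMIs. After filtering, 4978 DKO-Skp2+/- cells and 3515 DKO cells remained, of which 1884 DKO-Skp2+/- cells were shallower than the shallowest DKO barcode at 3420 UMIs. The libraries shared 30 barcodes. Skp2 itself, which is lost from 1 allele, had 57.2 CPM (counts scaled to 1000000 UMIs of the cells in question) in DKO-Skp2+/- cells and 81.0 CPM in DKO cells, a ratio of 0.706 (0.658 to 0.757). Cells with at least 3 UMIs of 26 core proliferation genes, after every cell was randomly thinned to 1500 UMIs, were called dividing, and they made up 45.7% of DKO-Skp2+/- cells and 57.7% of DKO cells. Clustering, done without the Notch genes, gave 27 clusters, and the 21 with at least 30 cells in each library are described here. From fixed marker lists, 14 of them took a name. They are progenitor-like (cluster 2), neurogenic progenitor-like (cluster 3), photoreceptor and bipolar precursor-like (cluster 4), immature neuron-like (clusters 5 and 7), rod-like (10 and 15), amacrine-like (11 and 19), bipolar-like (12 and 17), Müller glia-like (16), cone-like (18) and microglia-like (20). The other 7 are called by number and leading genes: cluster 0 (Npy, Cox4i2), which scored almost alike for Müller glia and progenitor markers, cluster 1 (Miat, Sox8), cluster 6 (Dlk1, Rgs13), cluster 8 (Epha8, St6galnac5), cluster 9 (Ptf1a, Chodl), cluster 13 (Txnip, Myc) and cluster 14 (Cdc20, Tuba1c). Every cell of clusters 3, 13 and 14 was dividing. The cone-like cluster held more rod than cone marker RNA. Its 9 rod markers summed to 21680 CPM in DKO-Skp2+/- and 17173 CPM in DKO, its 9 cone markers to 13032 and 9690 CPM. Values of this cluster are thus not those of cones alone. Because the names were rebuilt here, cell types may be drawn differently from those of the study.

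Of the 10 genes, 8 had 1 or 2 promoter entries in RefSeq (GRCm38.p6, 250 bases before and 50 after the start), while Hes1 and Mfng had none. In these 11 windows, 2 sets of letters were searched on both strands: TGGGAA, the core bound by Rbpj, and CAGCTG, an E box, a kind of site that basic helix-loop-helix factors bind. The 2 motifs did not overlap anywhere. The Rbpj core occurred at 2 places for Hes5 and for Rbpj itself and in no other member. Of all 32851 RefSeq promoter windows, 25.6% held at least 1 core and 3.79% at least 2. The E box occurred in 1 window of Dll1, in those of Dll3 and Jag1, and in both of Hes6, against 16.3% of all windows. A match describes these letters alone and is not shown to be a bound site. The 250 bases before the start are printed for Hes5, the gene with the largest difference between the libraries, and for the E-box windows of Dll1, Dll3 and Hes6, whose levels over all cells were higher in dividing cells. Capitals mark the Rbpj core in the Hes5 sequence and the E box in the other 3, each read along the strand of its gene. Positions are in GRCm38: Hes5 chr4:154960673-154960922 (plus strand), Dll1 chr17:15376933-15377182 (minus strand), Dll3 chr7:28301786-28302035 (minus strand) and Hes6 chr1:91414039-91414288 (minus strand).
Hes5: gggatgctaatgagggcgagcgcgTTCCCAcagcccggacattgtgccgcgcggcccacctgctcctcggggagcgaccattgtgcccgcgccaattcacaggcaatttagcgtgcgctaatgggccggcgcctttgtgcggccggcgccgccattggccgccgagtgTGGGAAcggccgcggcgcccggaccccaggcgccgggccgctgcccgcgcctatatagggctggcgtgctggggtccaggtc
Dll1: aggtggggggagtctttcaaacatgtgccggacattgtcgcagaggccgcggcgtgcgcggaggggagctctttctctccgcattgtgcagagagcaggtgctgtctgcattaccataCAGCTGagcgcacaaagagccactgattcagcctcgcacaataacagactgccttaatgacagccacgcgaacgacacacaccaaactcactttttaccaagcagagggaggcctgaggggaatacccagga
Dll3: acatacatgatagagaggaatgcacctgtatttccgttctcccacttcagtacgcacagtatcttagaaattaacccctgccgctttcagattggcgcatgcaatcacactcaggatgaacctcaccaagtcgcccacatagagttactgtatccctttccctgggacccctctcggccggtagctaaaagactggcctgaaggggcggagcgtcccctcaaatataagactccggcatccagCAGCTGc
Hes6: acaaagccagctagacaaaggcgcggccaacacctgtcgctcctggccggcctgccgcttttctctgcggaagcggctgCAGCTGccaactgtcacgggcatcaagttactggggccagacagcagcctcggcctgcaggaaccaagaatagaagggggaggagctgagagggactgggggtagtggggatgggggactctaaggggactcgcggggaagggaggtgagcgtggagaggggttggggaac
In Hes5 the core stood 226 bases before the start on the reverse strand and 82 bases before it on the forward strand. The E box lay 132, 7 and 171 bases before the start in Dll1, Dll3 and Hes6. Jag1, which is not printed, holds an E box too but was not higher in dividing cells. Dll4 and Notch1 were higher in dividing cells and had no E box in their windows. The RefSeq start used for Dll1 lies outside the span that GENCODE gives the gene, so its place is uncertain. The printed Dll3 bases lie within the span that GENCODE gives that gene (28293553 to 28302238). They stand before the RefSeq start but not before the GENCODE gene, so the place of this start is uncertain too.

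Dll1 (ENSMUSG00000014773, chromosome 17, 15367354 to 15376872 in GRCm38), a ligand that activates Notch on neighbouring cells, was highest in the dividing cells of cluster 13. There it reached 149 CPM in DKO-Skp2+/- cells and 148 CPM in DKO cells, from 114 UMIs in DKO-Skp2+/- and 158 UMIs in DKO. Cluster 13 stood above every other cluster in both libraries, with intervals that did not overlap that of cluster 1 behind it (79.7 CPM in DKO-Skp2+/-, 81.4 CPM in DKO). The neurogenic progenitor-like cells followed with 76.2 CPM in DKO-Skp2+/- and 54.8 CPM in DKO, cluster 14 with 74.1 CPM in DKO-Skp2+/- and 37.4 CPM in DKO, and cluster 6 with 45.3 CPM in DKO-Skp2+/- and 55.8 CPM in DKO. Neighbours in this lower order did not separate beyond counting error in both libraries. The progenitor-like cells had 26.7 CPM in DKO-Skp2+/- and 20.6 CPM in DKO, cluster 0 had 10.2 CPM in DKO-Skp2+/- and 8.64 CPM in DKO, and the first immature neuron-like cluster had 2.62 CPM in DKO-Skp2+/- and 2.00 CPM in DKO. In both libraries Dll1 was thus high in cluster 13, the neurogenic progenitor-like cells and cluster 1, and low in differentiated neurons.

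Dll3 (ENSMUSG00000003436, chromosome 7, 28293553 to 28302238) was highest in cluster 6 and the neurogenic progenitor-like cells. Cluster 6 had 66.1 CPM in DKO-Skp2+/- and 80.2 CPM in DKO, and the neurogenic progenitor-like cells had 69.3 CPM in DKO-Skp2+/- and 72.1 CPM in DKO. The precursor-like cells of cluster 4 came next with 51.2 CPM in DKO-Skp2+/- and 38.9 CPM in DKO. Unlike the levels of Dll1, those of Dll3 were also of this order in the amacrine-like cells, with 38.6 CPM in DKO-Skp2+/- and 31.4 CPM in DKO in cluster 11, and 42.0 CPM in DKO-Skp2+/- and 38.6 CPM in DKO in cluster 19, though these rest on 10 to 21 UMIs each. Dll3 was low in cluster 0 (4.71 CPM in DKO-Skp2+/- and 4.57 CPM in DKO) and the progenitor-like cells (5.66 CPM in DKO-Skp2+/- and 3.75 CPM in DKO). Cluster 1 held more, with 23.0 CPM in DKO-Skp2+/- and 20.1 CPM in DKO. Cluster 14 had 31.4 CPM in DKO-Skp2+/- from 14 UMIs and 5.75 CPM in DKO from 2 UMIs. The Müller glia-like cells had 14.2 CPM in DKO-Skp2+/- from 6 UMIs and 0 UMIs in DKO. No neighbours in the order separated in both libraries.

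Dll4 (ENSMUSG00000027314, chromosome 2, 119325784 to 119335962), a ligand known in the retina from cells that are turning into neurons, was highest in the neurogenic progenitor-like cells. It had 107.2 CPM there in DKO-Skp2+/- and 84.2 CPM in DKO, from 232 UMIs in DKO-Skp2+/- and 160 UMIs in DKO. This cluster stood apart from the next one in both libraries. Behind it lay a group of 5 clusters between 31.2 and 47.2 CPM in DKO-Skp2+/- and between 36.5 and 42.9 CPM in DKO: 13, 6, 9, the precursor-like cells and 8. The first immature neuron-like cluster still held 24.9 CPM in DKO-Skp2+/- and 19 CPM in DKO. Dll4 was near 0 where Hes5 was high, at 3.96 CPM in DKO-Skp2+/- and 6.34 CPM in DKO in cluster 1, 1.96 CPM in DKO-Skp2+/- and 2.54 CPM in DKO in cluster 0 and 1.21 CPM in DKO-Skp2+/- and 3.0 CPM in DKO in the progenitor-like cells. Dll1 and Dll4 thus parted in cluster 1, which was second for Dll1 in both libraries and held only 10 Dll4 UMIs in DKO-Skp2+/- and 6 in DKO. Dll4 is also known from blood vessels, and in the 9 DKO-Skp2+/- and 4 DKO cells of a small cluster led by vessel genes such as Cldn5 it had 106 CPM in DKO-Skp2+/- and 104 CPM in DKO, from 17 UMIs in DKO-Skp2+/- and 8 UMIs in DKO.

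Jag1 (ENSMUSG00000027276, chromosome 2, 137081456 to 137116644), the only Jagged ligand among the 10, was rare, with 115 UMIs in all DKO-Skp2+/- cells and 108 in all DKO cells. Among the 21 clusters its highest levels were in photoreceptors. The cone-like cells had 32.5 CPM in DKO-Skp2+/- and 24.0 CPM in DKO, and the rod-like cells of cluster 10 had 33.6 CPM in DKO-Skp2+/- and 16.6 CPM in DKO. These values rest on 15 to 28 UMIs, and the 2 clusters did not separate. Cluster 13 had 13.1 CPM in DKO-Skp2+/- and 10.3 CPM in DKO, and no other of the 21 clusters exceeded 6.38 CPM in either library. Jag1 was 87.6 CPM in DKO-Skp2+/- and 64.8 CPM in DKO in the small vessel-gene cluster, and 87.8 CPM in DKO-Skp2+/- and 61.2 CPM in DKO in another small, unnamed cluster led by Rims1 and Scg2, from 10 UMIs in DKO-Skp2+/- and 15 UMIs in DKO. In 2 of 4 other clusterings the cluster highest in Jag1 scored nearest to amacrine markers and not to cones.

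**Figure D1:**
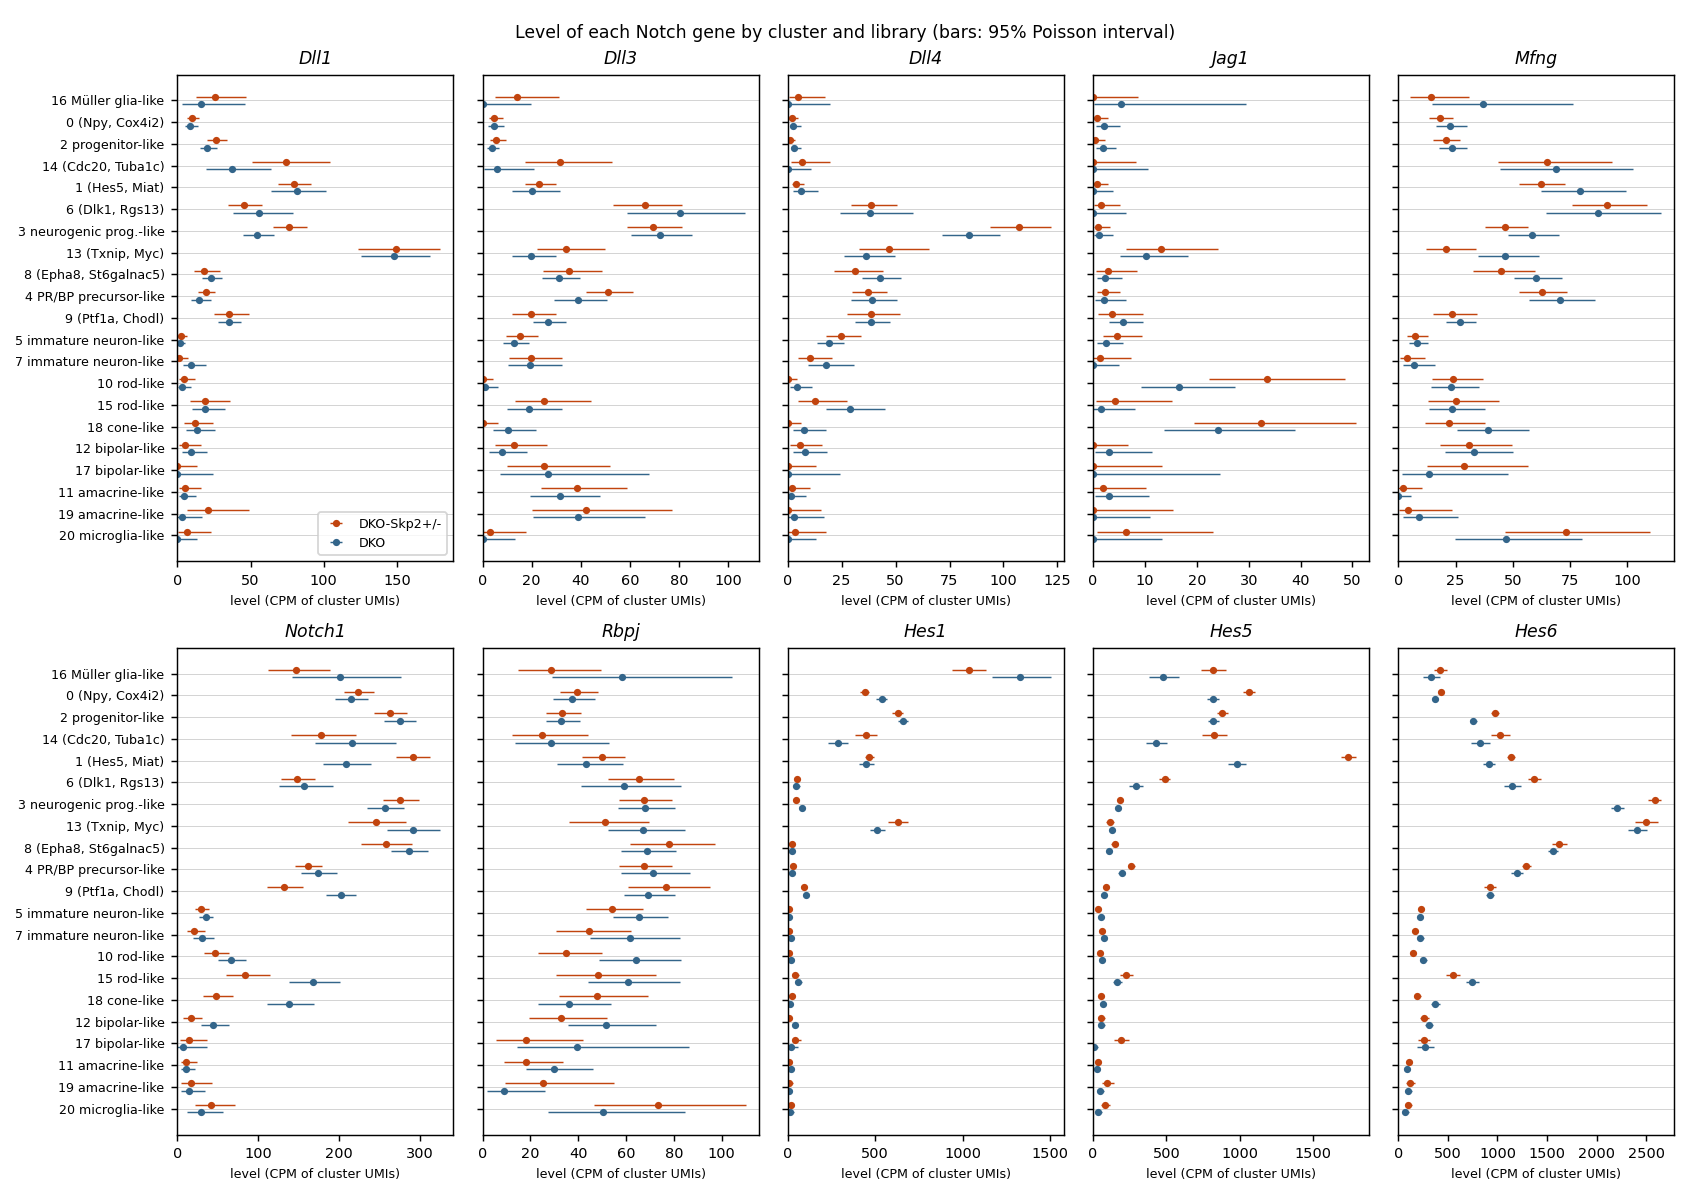
Level of each of the 10 genes in the 21 clusters, in CPM of the cluster's UMIs, with DKO-Skp2+/- drawn above DKO and bars for exact 95% counting intervals. Dll1 peaked in cluster 13 (149 CPM in DKO-Skp2+/- and 148 CPM in DKO), Dll4 in the neurogenic progenitor-like cells (107.2 CPM in DKO-Skp2+/- and 84.2 CPM in DKO), Hes5 in cluster 1 (1739 CPM in DKO-Skp2+/- and 978 CPM in DKO) and Hes1 in the Müller glia-like cells (1034 CPM in DKO-Skp2+/- and 1328 CPM in DKO).

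Mfng (ENSMUSG00000018169, chromosome 15, 78755882 to 78773475), a Golgi enzyme that adds a sugar to Notch and so alters which ligands it answers to, followed a different order. It was highest in cluster 6, with 91.2 CPM in DKO-Skp2+/- and 87.2 CPM in DKO. Cluster 1 had 62.2 CPM in DKO-Skp2+/- and 79.3 CPM in DKO, cluster 14 had 65.1 CPM in DKO-Skp2+/- and 69.0 CPM in DKO and the precursor-like cells had 62.6 CPM in DKO-Skp2+/- and 70.6 CPM in DKO. The microglia-like cells also held it, with 73.4 CPM in DKO-Skp2+/- and 46.9 CPM in DKO from 23 UMIs in DKO-Skp2+/- and 13 UMIs in DKO. It was low in cluster 0 (18.1 CPM in DKO-Skp2+/- and 22.4 CPM in DKO) and in the progenitor-like cells (20.6 CPM in DKO-Skp2+/- and 23.2 CPM in DKO), and all but absent from the amacrine-like cells of cluster 11, where 1 UMI was found in DKO-Skp2+/- and 0 in DKO.

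Notch1 (ENSMUSG00000026923, chromosome 2, 26457903 to 26516663), the receptor, was spread over all dividing and glia-related cells. In 6 clusters (8, 2, 13, 3, 1 and 0) it lay between 224 and 291 CPM in DKO-Skp2+/- and between 208 and 291 CPM in DKO. Ligand-rich and ligand-poor clusters stood side by side in this range: the neurogenic progenitor-like cells had 275 CPM in DKO-Skp2+/- and 257 CPM in DKO, and the progenitor-like cells had 263 CPM in DKO-Skp2+/- and 275 CPM in DKO. Cluster 15, rod-like, had 84.0 CPM in DKO-Skp2+/- and 167 CPM in DKO, and the cone-like cells had 47.8 CPM in DKO-Skp2+/- and 138 CPM in DKO, the DKO values near those of the precursor-like cells and cluster 6 in DKO (174 and 157 CPM). The amacrine-like and immature neuron-like cells lay far lower, with 11 CPM in DKO-Skp2+/- and 10.5 CPM in DKO in the first amacrine-like cluster and 20.9 CPM in DKO-Skp2+/- and 30.2 CPM in DKO in the second immature neuron-like cluster. No neighbours in this order separated in both libraries. Rbpj (ENSMUSG00000039191, chromosome 5, 53466152 to 53657362), which every Notch receptor uses to reach DNA, was flatter. It ran between 18 and 78.0 CPM over the clusters in DKO-Skp2+/- and between 8.92 and 71.3 CPM in DKO, with no break between neighbours in both. The genome holds processed pseudogenes of Rbpj that are not among the rows of the matrices, so Rbpj counts are uncertain where reads match such a copy. Exons of Notch1, Dll1, Dll4 and Hes5 overlap antisense transcripts in GENCODE, and whether the counting used strand is not given in the sources used here.

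Hes1 (ENSMUSG00000022528, chromosome 16, 30064384 to 30067796) and Hes5 (ENSMUSG00000048001, chromosome 4, 154960923 to 154962371) shared a set of high clusters but not their order. Hes1 was highest in the Müller glia-like cells, with 1034 CPM in DKO-Skp2+/- and 1328 CPM in DKO, and this cluster stood apart from the next in both libraries. The progenitor-like cells (628 CPM in DKO-Skp2+/- and 658 CPM in DKO), cluster 13 (629 CPM in DKO-Skp2+/- and 511 CPM in DKO), cluster 0 (439.9 CPM in DKO-Skp2+/- and 537 CPM in DKO), cluster 1 (467 CPM in DKO-Skp2+/- and 449 CPM in DKO) and cluster 14 (445 CPM in DKO-Skp2+/- and 285 CPM in DKO) followed. Below them the level dropped to at most 90.7 CPM in DKO-Skp2+/- and 103 CPM in DKO in cluster 9, a gap that held in both libraries. Hes5 was highest in cluster 1, with 1739 CPM in DKO-Skp2+/- and 978 CPM in DKO, followed by cluster 0 with 1063 CPM in DKO-Skp2+/- and 814 CPM in DKO, the progenitor-like cells with 882 CPM in DKO-Skp2+/- and 819.7 CPM in DKO, the Müller glia-like cells with 818 CPM in DKO-Skp2+/- and 476 CPM in DKO and cluster 14 with 827 CPM in DKO-Skp2+/- and 428 CPM in DKO. Cluster 1 stood apart from cluster 0 in both libraries. Cluster 13 broke the likeness of the pair, since it was high in Hes1 but held 114 CPM of Hes5 in DKO-Skp2+/- and 129 CPM in DKO. The microglia-like cells, which are not of the retinal lineage, held 79.7 CPM in DKO-Skp2+/- and 32.4 CPM in DKO of Hes5 and 15.9 CPM in DKO-Skp2+/- and 14.4 CPM in DKO of Hes1 at median depths of 7519 UMIs in DKO-Skp2+/- and 9424 UMIs in DKO per cell. Levels of this size in other clusters cannot be told apart from free RNA in the droplets.

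Hes6 (ENSMUSG00000067071, chromosome 1, 91411483 to 91414038) was ordered differently from the other Hes genes. It was highest in cluster 13, with 2502 CPM in DKO-Skp2+/- and 2411 CPM in DKO, and in the neurogenic progenitor-like cells, with 2586 CPM in DKO-Skp2+/- and 2208 CPM in DKO. Cluster 8 came next with 1625 CPM in DKO-Skp2+/- and 1560.2 CPM in DKO, apart from both neighbours in order in both libraries, ahead of cluster 6 (1373 CPM in DKO-Skp2+/- and 1149 CPM in DKO) and the precursor-like cells (1289 CPM in DKO-Skp2+/- and 1197 CPM in DKO). It was lower in cluster 0 (426 CPM in DKO-Skp2+/- and 374 CPM in DKO) and in the Müller glia-like cells (422 CPM in DKO-Skp2+/- and 328 CPM in DKO), where Hes1 and Hes5 were high. Other clusters high in both held more Hes6. Cluster 1 had 1138 CPM in DKO-Skp2+/- and 915 CPM in DKO, and the progenitor-like cells had 976 CPM in DKO-Skp2+/- and 758 CPM in DKO. Cluster 13 was high in Hes1 as well as in Hes6. The microglia-like background was 95.7 CPM in DKO-Skp2+/- and 72.1 CPM in DKO.

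Between the libraries, Hes5 was the member that differed most. Over all kept cells it had 520.0 CPM in DKO-Skp2+/- and 288 CPM in DKO, from 12508 UMIs in DKO-Skp2+/- and 6765 UMIs in DKO, a ratio of 1.81 (1.75 to 1.86). It was the only 1 of the 10 at least 25% higher in 1 library than in the other, the threshold used throughout. Across the 12421 genes with at least 100 UMIs, 15.1% were past this threshold in either direction, 9.45% higher and 5.68% lower in DKO-Skp2+/-, so 1 of 10 is a share below this background. The median log2 ratio was 0.096 over the members and 0.025 over all these genes. Sums over a library move with the number of cells of each type as well as with the RNA per cell, and the 2 cannot be told apart in them. Cluster 1 held 15.3% of DKO-Skp2+/- cells and 6.34% of DKO cells. Its non-dividing DKO-Skp2+/- cells had a median of 3058.5 UMIs, below the lowest DKO barcode at 3420 UMIs. The 2 shares therefore do not compare cells of like depth. Without cluster 1, an alternative chosen after seeing the data, the Hes5 ratio was 1.46. At the common floor of 3420 UMIs per cell it was 1.52 (1.47 to 1.57).

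The other members moved little over all cells. Dll1 had 34.4 CPM in DKO-Skp2+/- and 28.3 CPM in DKO (ratio 1.22, 1.1 to 1.35), and Dll3 had 27.5 CPM in DKO-Skp2+/- and 23.0 CPM in DKO (1.19, 1.06 to 1.34). Both intervals included 1 at the common floor of 3420 UMIs per cell, with 1.09 (0.973 to 1.22) for Dll1 and 1.08 (0.949 to 1.22) for Dll3, and that of Dll1 also without cluster 1 (1.12, with a lower bound of 0.996). Hes6 had 974 CPM in DKO-Skp2+/- and 881 CPM in DKO (1.11, 1.09 to 1.13). The ratio of Hes1 was 1.1 (1.06 to 1.14), but it turned to 0.971 when every cell was thinned to 1500 UMIs, to 0.956 when every cell counted alike and to 0.950 when every cluster counted alike. For the other 5 members the interval included 1. Their ratios were 0.986 for Dll4 (0.877 to 1.11), 1.04 for Jag1 (0.794 to 1.37), 1.03 for Mfng (0.934 to 1.13), 0.966 for Notch1 (0.925 to 1.01) and 0.925 for Rbpj (0.854 to 1.00).

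**Figure D2:**
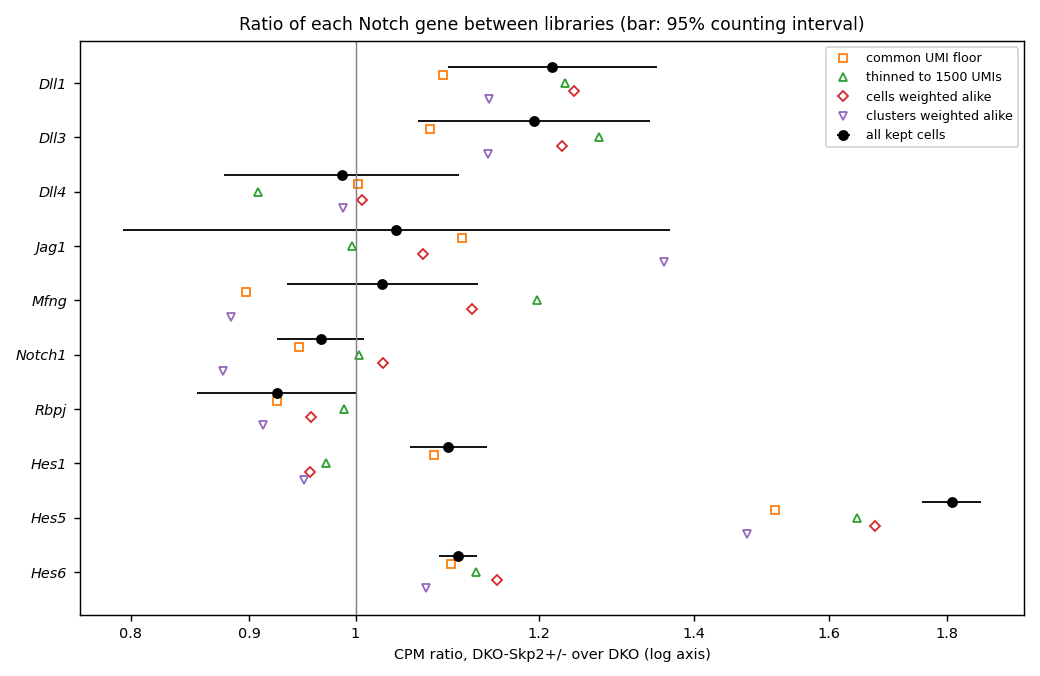
Ratio of CPM, DKO-Skp2+/- over DKO, on a log axis for each of the 10 genes over all kept cells, as a black point with its 95% counting interval, beside 4 alternative settings. Hes5 stood at 1.81 and the other 9 between 0.925 and 1.22; Hes1 crossed 1 under some settings.

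Hes5 was higher in DKO-Skp2+/- within clusters too. All 21 clusters had at least 20 Hes5 UMIs over both libraries, and the interval of the ratio lay above 1 in 12, below 1 in 1 and across 1 in 8. Among the 1948 genes with 20 UMIs in every one of these clusters, 23 (1.18%) had an interval above 1 in at least 12. Cluster 1, where Hes5 was highest, had a ratio of 1.78 (1.66 to 1.91) at median depths of 3070.5 UMIs in DKO-Skp2+/- and 3824 UMIs in DKO. The ratio was 1.93 (1.59 to 2.35) in cluster 14, 1.72 (1.36 to 2.19) in the Müller glia-like cells, 1.31 (1.23 to 1.39) in cluster 0 and 1.34 (1.16 to 1.55) in the precursor-like cells. In the progenitor-like cells, nearly all of which were dividing, it was 1.08 (1.01 to 1.14). In the neurogenic progenitor-like cells the 184 CPM of DKO-Skp2+/- and 171 CPM of DKO differed by less than counting error (1.08, 0.931 to 1.26). Cluster 6 had a ratio of 1.69, but 0.920 when both libraries were held to the common floor of 3420 UMIs per cell, and what sets this apart was not tested. The single cluster with an interval below 1 was the first immature neuron-like one, with 35.3 CPM in DKO-Skp2+/- and 52.9 CPM in DKO (0.667, 0.472 to 0.935). Hes5 was also higher in the microglia-like cells, with 25 UMIs in DKO-Skp2+/- and 9 in DKO (2.46, 1.11 to 5.98), and in 1 of the bipolar-like clusters, number 17, with 52 UMIs in DKO-Skp2+/- and 1 UMI in DKO (28.3, 4.86 to 1139.8). Microglia arise outside the retina, and how far free RNA adds to the ratio of other clusters was not tested.

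**Figure D3:**
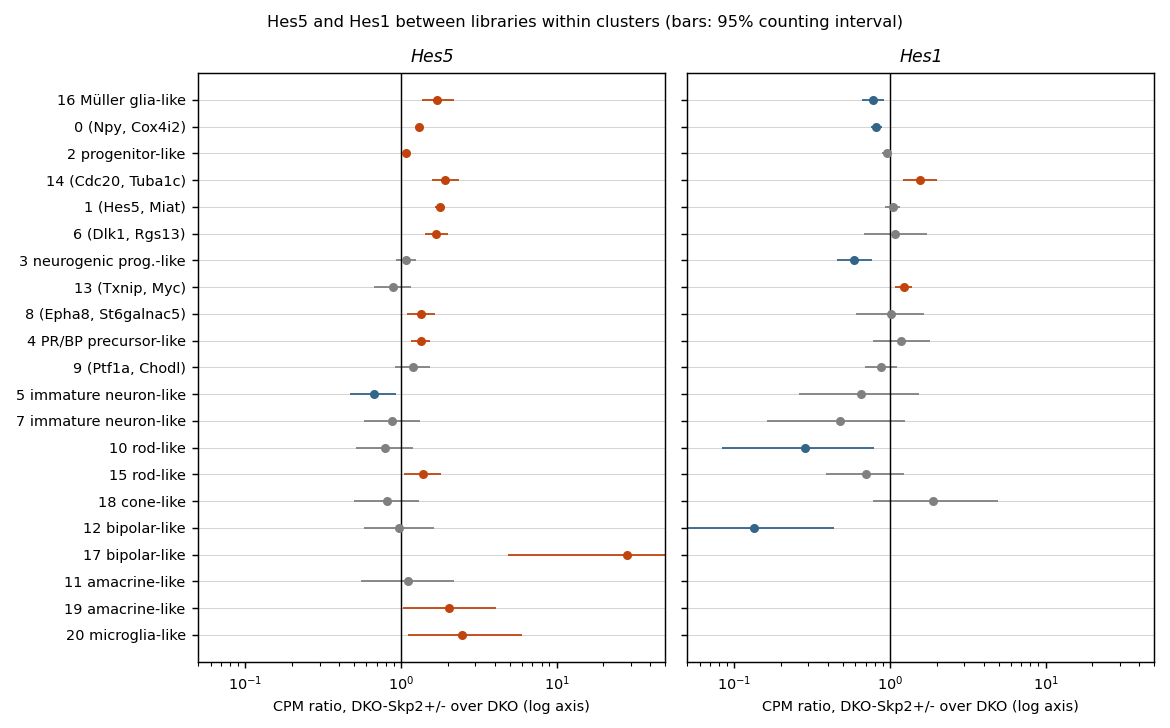
Ratio of CPM, DKO-Skp2+/- over DKO, for Hes5 and Hes1 in each of the 21 clusters on a log axis, with 95% counting intervals that may run past the axis; orange marks intervals above 1, blue below 1 and grey across 1. Hes5 lay above 1 in 12 clusters and below in 1, Hes1 above in 2 and below in 5 of the 17 with 20 UMIs.

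Hes1 did not move with Hes5. Of 17 clusters with at least 20 Hes1 UMIs, the interval was above 1 in 2 and below 1 in 5. In the Müller glia-like cells Hes1 was lower in DKO-Skp2+/- (0.778, 0.665 to 0.913) where Hes5 was higher, and in cluster 0 likewise (0.820, 0.753 to 0.893). Only cluster 14 had both genes above 1, with a Hes1 ratio of 1.56 (1.22 to 2.01), while cluster 13 had Hes1 above 1 (1.23, 1.09 to 1.39) and Hes5 across it. In the neurogenic progenitor-like cells Hes1 had 46.7 CPM in DKO-Skp2+/- and 79.0 CPM in DKO (0.591, 0.455 to 0.766). Hes6 was above 1 in 7 and below 1 in 4 of 21 clusters. Its intervals above 1 included the progenitor-like cells (1.29, 1.21 to 1.37) and the neurogenic progenitor-like cells (1.17, 1.13 to 1.22), and those below 1 included both rod-like clusters (0.592 in cluster 10 and 0.738 in cluster 15) and the cone-like cells, with 186 CPM in DKO-Skp2+/- and 371 CPM in DKO (0.502, 0.397 to 0.632). Non-dividing cells of cluster 10 had median depths of 4206 UMIs in DKO-Skp2+/- and 7448 UMIs in DKO. The part of depth in these ratios was not tested.

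For Notch1 the direction differed between clusters. Cluster 1 had 291 CPM in DKO-Skp2+/- and 208 CPM in DKO (1.4, 1.19 to 1.64), the only cluster of 18 with an interval above 1. Intervals lay below 1 in 4 clusters, namely cluster 9 with 132 CPM in DKO-Skp2+/- and 202 CPM in DKO (0.654, 0.538 to 0.790), the second rod-like cluster with 84.0 CPM in DKO-Skp2+/- and 167 CPM in DKO (0.503), the cone-like cells with 47.8 CPM in DKO-Skp2+/- and 138 CPM in DKO (0.346) and the bipolar-like cells of cluster 12 with 16.4 CPM in DKO-Skp2+/- and 43.9 CPM in DKO (0.374). In the last 3 the DKO-Skp2+/- cells were also less often dividing, at 27.4% in DKO-Skp2+/- and 47.4% in DKO for the second rod-like cluster, 1.67% in DKO-Skp2+/- and 23.8% in DKO for the cone-like cells and 0 of 126 cells in DKO-Skp2+/- (up to 2.38%) and 7.32% in DKO for cluster 12. Depth differed too. Median UMIs of non-dividing cells were 3465.5 in DKO-Skp2+/- and 6166 in DKO for cluster 12, and 6458 and 9927 for the cone-like cells. They were 5276 and 8022 for cluster 9, but 5093 and 5250.5 for the second rod-like cluster. The parts of depth and of the dividing cells in these ratios were not tested. Dll1 was higher in DKO-Skp2+/- in the neurogenic progenitor-like cells (1.39, 1.08 to 1.8) and in cluster 14 (1.98, 1.02 to 4.11), and Dll4 in the neurogenic progenitor-like cells (1.27, 1.04 to 1.57). Dll3 spanned 1 in all 14 clusters with 20 UMIs. Below that limit its interval lay above 1 in cluster 14 (5.47, 1.26 to 49.6, from 14 UMIs in DKO-Skp2+/- and 2 in DKO). It lay below 1 in the cone-like cells, with 0 UMIs in DKO-Skp2+/- and 7 in DKO (upper bound 0.790). Mfng was lower in DKO-Skp2+/- in cluster 13 alone (0.449, 0.238 to 0.801, from 16 UMIs in DKO-Skp2+/- and 50 UMIs in DKO), and Rbpj in the rod-like cells of cluster 10 alone (0.542, 0.335 to 0.861). Jag1 was higher in those same rod-like cells, with 28 UMIs in DKO-Skp2+/- and 15 in DKO (2.02, 1.05 to 4.08).

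Split by division, the members differed more between the libraries in the cells that were not dividing. In non-dividing cells 7 of the 10 members were past the threshold of 25%, all of them higher in DKO-Skp2+/-, against 18.3% of 11209 genes in either direction and 9.69% in that direction. These sums mix cell types, and cluster 1 held 612 of 2702 non-dividing cells in DKO-Skp2+/- and 162 of 1488 in DKO. Over all cells of cluster 1 the intervals included 1 for Dll1 (0.979), Mfng (0.785) and Dll3 (1.14). They lay above 1 for Hes5 (1.78), Notch1 (1.4) and Hes6 (1.24). The part of the cell mix in this count was not tested. Hes5 had 589 CPM in DKO-Skp2+/- and 272 CPM in DKO (2.17, 2.07 to 2.27), and Dll1 had 23.7 CPM in DKO-Skp2+/- and 12.6 CPM in DKO (1.88, 1.51 to 2.36). Hes6 had 536 CPM in DKO-Skp2+/- and 368 CPM in DKO (1.46, 1.4 to 1.52), and Notch1 had 126 CPM in DKO-Skp2+/- and 90.0 CPM in DKO (1.4, 1.28 to 1.53). The ratio was 1.32 for Dll3, 1.28 for Mfng and 1.27 for Jag1, whose interval included 1 (0.892 to 1.84). Depth moved with this count: at the common floor of 3420 UMIs, added after seeing the data, 3 of 10 were past it, against 16% of 10881 genes. Hes5 stood at 1.68 (1.6 to 1.77), Dll1 at 1.26 (0.974 to 1.63) and Jag1 at 1.45 (0.995 to 2.12), and the intervals of Dll1 and Jag1 include 1. Notch1 stood at 1.17 and Hes6 at 1.2. In dividing cells 1 of the 9 members with 100 UMIs was past it, against 17.9% of 10981 genes. That 1 was Hes5, with 451 CPM in DKO-Skp2+/- and 297 CPM in DKO (1.52, 1.46 to 1.58). Notch1 had 217 CPM in dividing DKO-Skp2+/- cells and 231 CPM in dividing DKO cells (0.937, 0.890 to 0.986).

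Cell cycle position was read from the share of S-phase UMIs among S and G2M UMIs. Cells above a share of 0.417 were placed on the S side, cells at or below 0.2 on the G2M side and the rest in the middle. This placed 4303 dividing cells, 549 of them within 0.02 of a limit. Position rests on ranges of a score, not on types of cell, and free RNA enters it too. Of the amacrine-like cells of cluster 11, 0 of 101 were called dividing in DKO-Skp2+/-, which allows a share of up to 2.97%, and 0.901% in DKO. Whether any of these cells divide is not known apart from this call.

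Notch1, the 3 Delta ligands and Hes6 were higher in dividing than in non-dividing cells of both libraries. The ratio of dividing to non-dividing cells was 2.64 in DKO-Skp2+/- and 3.26 in DKO for Hes6. It was 1.72 in DKO-Skp2+/- and 2.57 in DKO for Notch1, 1.91 in DKO-Skp2+/- and 3.02 in DKO for Dll1, 3.19 in DKO-Skp2+/- and 2.81 in DKO for Dll4, and 1.6 in DKO-Skp2+/- and 1.71 in DKO for Dll3. These sums mix cell types, and inside single clusters the order was not general. Among pairs of a cluster and a library with 20 cells of each kind and 20 UMIs, the interval lay above 1 in 3 and below 1 in 2 of 13 for Hes6, above in 3 and below in 1 of 13 for Notch1, above in 1 and below in 1 of 9 for Dll1, above in 1 and below in 2 of 9 for Dll3, and across 1 in all 9 for Dll4. For Hes6 the level in DKO-Skp2+/- cells was 536 CPM in non-dividing cells, 1094 CPM on the S side, 1364 CPM in the middle and 1783 CPM on the G2M side, and in DKO cells it was 368, 901, 1338 and 1288 CPM. Notch1 had 126, 172, 211 and 266 CPM in DKO-Skp2+/- cells and 90.0, 191, 238 and 259 CPM in DKO cells. Its value was thus highest on the G2M side in both libraries, while that of Hes6 in DKO was highest in the middle. The libraries parted at the G2M side for Dll1, where DKO-Skp2+/- cells had 65.8 CPM (58.1 to 74.2) and DKO cells had 38.8 CPM (33.3 to 45.0), while on the S side they had 31.0 CPM in DKO-Skp2+/- and 35.0 CPM in DKO with overlapping intervals. Dll3 did likewise, with 46.0 CPM (39.6 to 53.1) in DKO-Skp2+/- and 29.8 CPM (25 to 35.2) in DKO on the G2M side. Jag1 was lower in dividing cells, with 2.33 CPM in dividing and 7.23 CPM in non-dividing DKO-Skp2+/- cells (0.323, 0.203 to 0.499), and 3.92 and 5.67 CPM in DKO (0.692, 0.466 to 1.03).

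The step at the G2M side was present inside single cell types. In the neurogenic progenitor-like cells of DKO-Skp2+/-, Dll1 had 35.9 CPM (23.3 to 53.1) in the middle and 101 CPM (84.6 to 119) on the G2M side. In those of DKO it had 45.5 CPM (31.3 to 63.8) and 63.8 CPM (49.4 to 81.0), which overlap. Hes6 in the same cells stepped up through all 3 positions in both libraries, with 1641, 2256 and 2851 CPM in DKO-Skp2+/- and 1752, 2032 and 2383 CPM in DKO from the S side to the G2M side. In the progenitor-like cells Hes6 had 589 CPM in the middle and 1245 CPM on the G2M side in DKO-Skp2+/-, and 579.9 and 887 CPM in DKO. Dll1 in these cells had 11.7 CPM (5.63 to 21.6) and 36.9 CPM (27.8 to 48.0) in DKO-Skp2+/-, and 7.50 CPM (3.02 to 15.5) and 26.3 CPM (18.9 to 35.5) in DKO. For Notch1, dividing and non-dividing cells of clusters 0, 1 and 6 differed by less than counting error in both libraries. Dividing cells had more Notch1 in cluster 9 of DKO (1.91, 1.35 to 2.79), cluster 15 of DKO (2.61, 1.62 to 4.36) and cluster 5 of DKO-Skp2+/- (2.65, 1.38 to 4.99), and less in cluster 4 of DKO-Skp2+/- (0.758, 0.614 to 0.937).

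**Figure D4:**
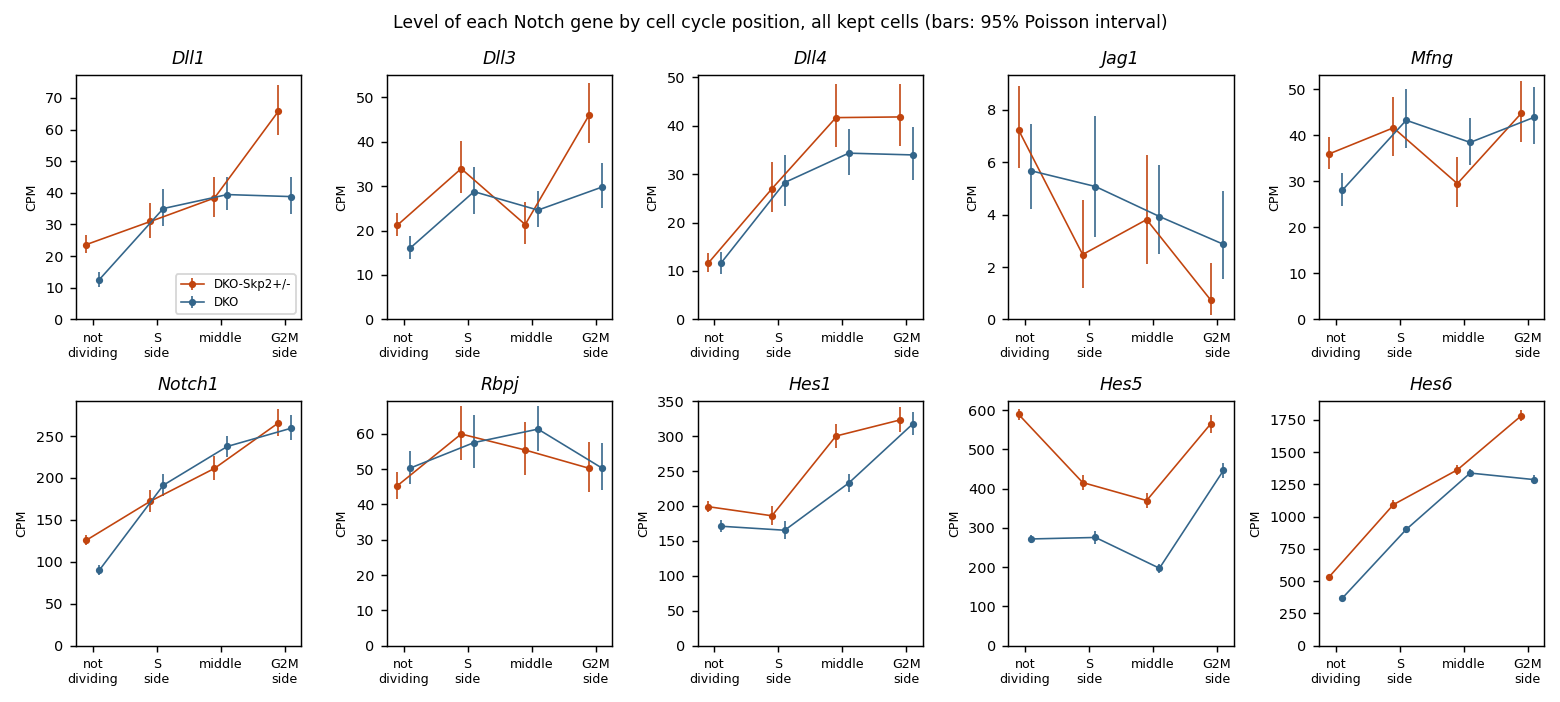
Level of each of the 10 genes in CPM over all kept cells that were not dividing, on the S side, in the middle and on the G2M side, DKO-Skp2+/- left of DKO, with 95% counting intervals. Hes6 ran from 536 to 1783 CPM over these positions in DKO-Skp2+/-, and Dll1 on the G2M side was 65.8 CPM in DKO-Skp2+/- and 38.8 CPM in DKO.

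Hes5 was lower in dividing cells inside several of the clusters that could be examined. Only clusters 0, 1, 4, 5, 6 and 9 in both libraries and cluster 15 in DKO held enough cells of both kinds. Of these 13 pairs of a cluster and a library, the interval lay below 1 in 9, above 1 in 1 and across 1 in 3. Dividing cells had less Hes5 than non-dividing cells of the same cluster in cluster 0 (ratio 0.812 in DKO-Skp2+/- and 0.843 in DKO), cluster 1 (0.826 in DKO-Skp2+/-, 0.637 in DKO), the precursor-like cells (0.560 in DKO-Skp2+/-, 0.345 in DKO) and cluster 9 (0.524 in DKO-Skp2+/-, 0.535 in DKO), with every interval below 1. In the precursor-like cells this meant 199.6 CPM in dividing and 356 CPM in non-dividing cells of DKO-Skp2+/-, and 120.2 and 348 CPM in those of DKO. In cluster 6 the ratio was 0.545 in DKO-Skp2+/- and 0.90 in DKO, where the interval included 1, and in the first immature neuron-like cluster it spanned 1 in both libraries (1.26 in DKO-Skp2+/- and 0.918 in DKO). The second rod-like cluster ran the other way in DKO, with more Hes5 in its dividing cells (1.56). Over all cells the Hes5 ratio was 0.765 in DKO-Skp2+/- and 1.09 in DKO, and the mix of cell types enters these sums. Hes1 over all cells was higher in dividing cells (1.35 in DKO-Skp2+/- and 1.4 in DKO), but within cluster 0 it was 1.15 in DKO-Skp2+/- and 0.874 in DKO.

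Cells were then called ligand-positive where they held a UMI of any of the 4 ligands, and Hes-positive where they held a UMI of Hes1 or Hes5, after thinning to 1500 UMIs. The first call counts Dll3, which does not activate Notch on neighbours. Ligand-positive cells made up 11.9% (11 to 12.8) of DKO-Skp2+/- cells and 10.6% (9.64 to 11.7) of DKO cells, a ratio of 1.11 (0.986 to 1.26). This interval depended on the thinning draw: in 10 other draws the ratio ran between 1.1 and 1.3, and in 8 of them the interval lay above 1. Without Dll3, an alternative chosen after seeing the data, the ratio was 1.05 (0.903 to 1.21). Hes-positive cells made up 42.0% of DKO-Skp2+/- cells and 36.2% of DKO cells (1.16, 1.1 to 1.22). Without thinning, which leaves the deeper DKO cells more UMIs, the Hes-positive share had a ratio of 0.976 and the ligand-positive share 0.90. Both marks together were found in 4.52% of DKO-Skp2+/- cells and 3.30% of DKO cells (1.37, 1.1 to 1.71), a ligand alone in 7.33% in DKO-Skp2+/- and 7.34% in DKO, Hes1 or Hes5 alone in 37.4% in DKO-Skp2+/- and 32.9% in DKO, and neither in 50.7% in DKO-Skp2+/- and 56.4% in DKO. In microglia-like cells, which gauge free RNA, a ligand UMI was found in 2 of 41 DKO-Skp2+/- cells (4.88%) and 0 of 30 DKO cells, which allows a share of up to 10%.

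Ligand-positive and Hes-positive cells were frequent in different clusters, with exceptions. The highest ligand-positive shares were in cluster 13 (30.4% in DKO-Skp2+/- and 24.5% in DKO), the neurogenic progenitor-like cells (29.2% in DKO-Skp2+/- and 27.3% in DKO) and cluster 6 (21.2% in DKO-Skp2+/- and 23.5% in DKO). The lowest among dividing or glia-related cells were in cluster 0 (2.36% in both) and the progenitor-like cells (3.82% in DKO-Skp2+/- and 5.10% in DKO), beside 4.90% in DKO-Skp2+/- and 3.23% in DKO in the rod-like cells of cluster 10. The Hes-positive share was 84.0% in DKO-Skp2+/- and 81.6% in DKO in the Müller glia-like cells, 79.8% in DKO-Skp2+/- and 77.1% in DKO in the progenitor-like cells and 79.1% in DKO-Skp2+/- and 74.9% in DKO in cluster 0. It was 19.6% in DKO-Skp2+/- and 18.1% in DKO in the neurogenic progenitor-like cells, 12.2% in DKO-Skp2+/- and 3.33% in DKO in the microglia-like cells and 6.29% in DKO-Skp2+/- and 7.53% in DKO in the rod-like cells of cluster 10. Clusters 13, 1 and 6 held both marks in both libraries. Cluster 13 had 43.1% Hes-positive cells in DKO-Skp2+/- and 50% in DKO, and 15.7% of its cells in DKO-Skp2+/- and 18.1% in DKO held both marks at once, against 10.5% in DKO-Skp2+/- and 10.3% in DKO in cluster 1. Cluster 1 had 81.0% Hes-positive and 13.9% ligand-positive in DKO-Skp2+/-, and 74.0% and 13.5% in DKO. Cluster 14 had 68.8% Hes-positive cells in DKO-Skp2+/- and 45.8% in DKO. Both marks were found in 9 of its 80 cells in DKO-Skp2+/- (11.25%) and 2 of 59 in DKO (3.39%), a ratio of 3.32 (0.744 to 14.8). In the neurogenic progenitor-like cells both were found in 6.24% in DKO-Skp2+/- and 4.59% in DKO.

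Ligand-positive cells were more frequent among dividing cells, at 14.7% of dividing and 9.44% of non-dividing cells in DKO-Skp2+/- (ratio 1.56) and 13.7% and 6.45% in DKO (2.13). By position the share in DKO-Skp2+/- was 11.8% on the S side, 11.9% in the middle and 20.6% (17.8 to 23.7) on the G2M side. In DKO it was 12.8%, 13.4% and 14.7% (12.2 to 17.5), with overlapping intervals. Within clusters 1, 4, 6 and 9, which held both kinds of cell, the intervals of dividing and non-dividing cells overlapped.

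Cell by cell, the company kept by the 3 Delta ligands differed. A cell with a Dll4 UMI held Hes1 in 7.19% of cases in DKO-Skp2+/- and 4.96% in DKO, against 21.6% in DKO-Skp2+/- and 20.7% in DKO of cells without one. It also held Hes5 less often, in 22.2% against 33.7% in DKO-Skp2+/- and 11.6% against 26.9% in DKO. Dll3 resembled Dll4 in Hes1, with 9.77% against 21.7% in DKO-Skp2+/- and 9.92% against 20.6% in DKO. Dll1 went the other way. A cell with a Dll1 UMI held Hes1 in 31.2% against 20.7% and Hes5 in 47.4% against 32.6% of cases in DKO-Skp2+/-, and in DKO the same shares, 26.8% against 19.9% for Hes1 and 34.5% against 26.1% for Hes5, had overlapping intervals. These shares pool cell types. Cluster 1, where Hes5 was highest, had 79.7 CPM of Dll1 in DKO-Skp2+/- and 81.4 CPM in DKO, but 3.96 and 6.34 CPM of Dll4. The part of the cell mix in the contrast of Dll1 and Dll4 was not tested. All 3 ligands shared cells with Hes6. It was found in 86.9% of DKO-Skp2+/- and 76.9% of DKO cells with Dll4, in 86.2% in DKO-Skp2+/- and 81.0% in DKO of those with Dll1 and in 77.2% in DKO-Skp2+/- and 79.3% in DKO of those with Dll3, against 53.8% to 57.2% of cells without the ligand in question. The share of cells with Hes6 was 55.1%, 78.6% and 87.0% at 0, 1 and 2 ligand UMIs in DKO-Skp2+/-, and 52.2%, 76.1% and 91.4% in DKO. Mfng was found in 8.98% of cells with any ligand against 5.22% of those without in DKO-Skp2+/-, and in 8.29% against 4.39% in DKO.

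**Figure D5:**
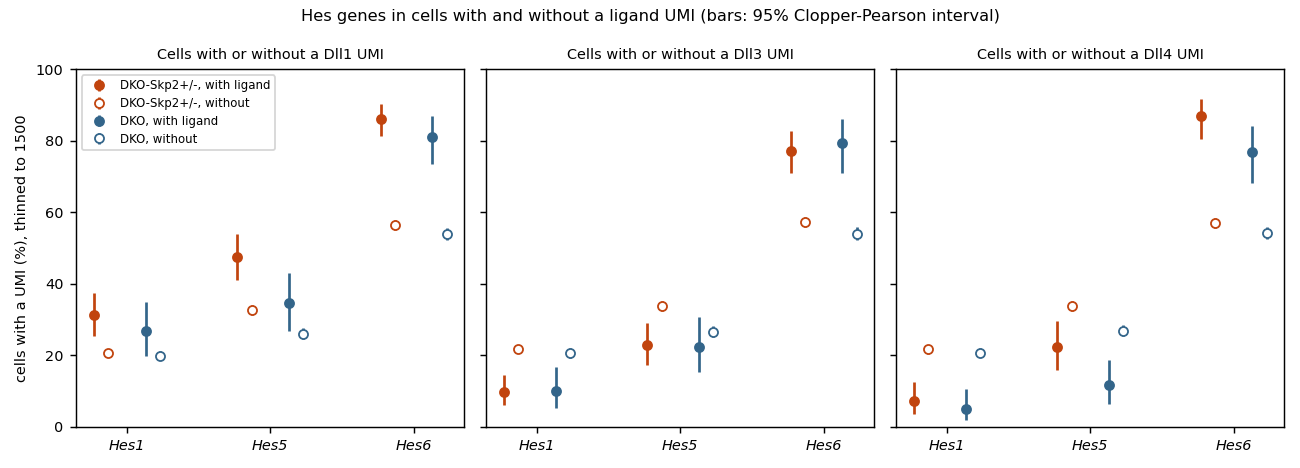
Percent of cells with a UMI of Hes1, Hes5 and Hes6 among cells with (filled) and without (open) a UMI of Dll1, Dll3 or Dll4, after thinning to 1500 UMIs, DKO-Skp2+/- beside DKO, with 95% Clopper-Pearson intervals. Hes1 stood at 7.19% in DKO-Skp2+/- and 4.96% in DKO of Dll4 cells and at 31.2% in DKO-Skp2+/- and 26.8% in DKO of Dll1 cells.

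Inside single clusters many of these differences were within counting error, though not all. Within the neurogenic progenitor-like cells, cells with and without a ligand UMI had overlapping shares of Hes1, Hes5, Hes6, Notch1 and Mfng in both libraries. Within cluster 1 Hes6 was more frequent beside a ligand in DKO-Skp2+/- (88.7% against 70.0%), and in DKO the shares of 76.7% and 61.1% overlapped. Hes5 in cluster 1 was found in 68.9% of cells with a ligand against 71.8% without in DKO-Skp2+/-. In DKO it was 70% against 60.1%, and both pairs of intervals overlapped. Within the precursor-like cells of DKO-Skp2+/- a ligand UMI went with more Hes5 (28.9% against 13.3%) and more Hes6 (94.7% against 75.1%), while those of DKO overlapped. For Hes1 the share was higher beside a ligand in cluster 6 of DKO (18.8% against 1.92%) and in cluster 9 of DKO (26.1% against 5.17%). For Dll4 alone, clusters with at least 20 cells holding it were few. The Hes5 share with and without Dll4 was 17.2% against 14.3% in the neurogenic progenitor-like cells of DKO-Skp2+/- and 12.2% against 14% in those of DKO. It was 22.2% against 15.2% in the precursor-like cells and 25.9% against 26.0% in cluster 6 of DKO-Skp2+/-, and all of these intervals overlapped.

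Over the 21 clusters, both libraries averaged, the 9003 genes with at least 500 UMIs were ranked by Pearson's r with each member, on the scale log2(CPM + 5), as a description over points that share libraries and depth. Among the genes most like Dll1 were Odc1 (r = 0.84) and Fbxo30 (0.83). Those most like Dll4 were 3110035E14Rik (0.94), Tfap2d (0.93) and Olig2 (0.90), the last a factor of neurogenic progenitors, and those most like Dll3 were Mpp3 (0.83), Fmn2 (0.83) and Brms1l (0.77). Notch1 was most like Limd1 (0.95), Pcgf5 (0.95) and Gli3 (0.93), and Mfng most like Tmem123 (0.85), Cpne3 (0.83) and Lman2 (0.82). Hes1 was most like Id3 (0.95), Rgcc (0.95) and Cyr61 (0.93), Hes5 like Utp14b (0.95), Lsr (0.94) and Cdon (0.94), and Hes6 like Hmgn5 (0.96), Cenpq (0.94) and Cenpj (0.94). For Rbpj the nearest were Brpf1 (0.85), Gamt (0.80) and Tpt1 (0.80). Jag1 was too rare to be ranked. Among the members themselves r was 0.83 for Hes1 and Hes5, 0.85 for Notch1 and Hes6 and 0.83 for Dll1 and Hes6, while r was -0.05 for Dll4 with each of Hes1 and Hes5. For Hes6 with each of Hes1 and Hes5 it was 0.53.

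Of 45 other genes of the pathway on a fixed list, 42 had at least 100 UMIs. Over all kept cells 26 of them had a ratio above 1 and 16 below, with a median log2 ratio of 0.070 against 0.025 for all genes. Past the threshold of 25%, 7 were higher in DKO-Skp2+/- and 1 lower, to be read against the 9.45% and 5.68% of all genes. The 7 were the receptors Notch2 (20.2 CPM in DKO-Skp2+/- and 12.9 CPM in DKO; 1.57, 1.36 to 1.82) and Notch3 (1.5), the cleavage genes Aph1b (8.15 CPM in DKO-Skp2+/- and 4.04 CPM in DKO; 2.02, 1.57 to 2.61) and Adam17 (1.27), the Notch target genes Hey2 (1.30) and Heyl (1.33), and Dlk2 (1.47), a protein related to the ligands. The 1 lower was Neurl1a (0.770, 0.667 to 0.888), a ubiquitin ligase that acts on ligands. In the other roles the ratios farthest from 1 were smaller: 1.17 for Lfng and 0.960 for Rfng among sugar transferases, 1.13 for Mib2 in ligand uptake, 0.883 for Psen2 in cleavage, 1.21 for Dtx2 and 0.934 for Numbl among genes that restrain the receptor, 1.05 for Maml2 and 0.869 for Snw1 among nuclear cofactors, 0.885 for Dner among ligand relatives and 0.880 for Hes2 among targets. Nrarp, a target that feeds back on the pathway, had 205 CPM in DKO-Skp2+/- and 177 CPM in DKO (1.16, 1.11 to 1.21), and the target Hey1 had a ratio of 1.2 (1.09 to 1.33). Adam10 and Adam17, which cut the receptor outside the membrane, were highest in the microglia-like cells.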

How the data were processed

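Droplet-based 3′ libraries were made from dissected, papain-digested peripheral retina, 1 per genotype, and sequenced on a HiSeq3000, per the labels' protocols. The values the authors deposited are whole-number UMI counts for each gene in each barcode, not normalized. Cell Ranger (2.2.0) and mm10 are named by the submitters' processing notes. How the authors filtered barcodes or treated doublets is not given in the sources used here. The genes and lists were chosen with earlier results of these data known. Groups follow the genotype labels.

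Cells needed 500 genes or more and no more than 20% mitochondrial UMIs. This removed 2 DKO-Skp2+/- and 1 DKO barcodes. Simulated doublets (2 per cell) scored each barcode, and the top 0.8% per 1000 barcodes were removed, 216 in DKO-Skp2+/- and 105 in DKO. Cells were clustered on 2000 variable genes without the cell cycle genes, the members and the pathway list (30 principal components, 15 neighbours, Leiden resolution 1). A name needed a mean log2 fold of its markers of at least 1, at least 3 markers above 2-fold, and no second list within 0.3, limits set after the data had been seen. Counts were summed per library and population and given as CPM. Ratios have exact conditional Poisson intervals, shares Clopper-Pearson intervals and share ratios log-scale intervals, all at 95%. A ratio was read within a cluster from 20 UMIs over both libraries. The ratio step was tested on simulated data. The text names all members, the pathway genes with the largest ratios per role and the 3 genes most like each member with 500 UMIs, 1 of which is not reported here. Software was scanpy 1.11.5, leidenalg 0.10.2, igraph 0.11.9, scipy 1.17.1, numpy 2.4.6, pandas 2.3.3 and matplotlib 3.10.9 under Python 3.11.15. Gene positions are from GENCODE on GRCm38, the assembly of mm10.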

Additional observations from a re-analysis of the deposited data

How the results depend on the processing

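No paired analysis was possible because each genotype has 1 library, and no replicate could be left out. The Hes5 ratio over all kept cells stayed above 1 in all 9 alternatives, between 1.46 (without cluster 1) and 1.81, with 1.52 at the common floor of 3420 UMIs and 1.48 with clusters weighted alike. The Hes1 ratio over all kept cells turned below 1, to 0.971 after thinning to 1500 UMIs, 0.956 with cells weighted alike and 0.950 with clusters weighted alike, and the Hes5 ratio of cluster 6 turned to 0.920 at the common floor. The cause was not tested. The members past the fold numbered 2 after thinning, where Dll3 joined at 1.27, against 15.1% of all genes, and 4 at a fold of 1.1, against 47% of all genes.

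Shares of cells depended on depth and on the calling rule. Unthinned, the ratio between libraries turned to 0.976 for the share of cells with Hes1 or Hes5 and was 0.90 for the share with a ligand. Thinned to 2300 UMIs the first was 1.09, and in 2 of 10 other thinning draws it was 1.09 as well. Counting ligands from 2 UMIs gave 1.43 for the ligand share and 2.73 for its ratio of dividing over non-dividing cells in DKO-Skp2+/-. The share with Hes5 beside a ligand over that without was 0.932 in DKO-Skp2+/- and 0.836 in DKO. It became 0.769 at the common floor and 1.15 (1.01 to 1.31) with Dll1 or Dll4 alone and 1.1 without Dll3 in DKO-Skp2+/-, 1.11 in DKO-Skp2+/- and 1.03 in DKO from 2 UMIs, and 0.676 in 1 thinning draw in DKO. For Hes6 it was 1.46 in DKO-Skp2+/- and 1.49 in DKO, and the alternatives that moved it gave 1.24 in both unthinned, 1.34 in DKO-Skp2+/- and 1.30 in DKO at 2300 UMIs, 1.54 in DKO-Skp2+/- and 1.67 in DKO from 2 UMIs, 1.54 with Dll1 or Dll4 alone in DKO-Skp2+/- and 1.6 in 1 draw in DKO. The highest-level class of a member is the marker list nearest to the cluster where it was highest. Out of 10 members, other clusterings kept this class for 7 at resolution 0.5, 6 at resolution 1.5, 5 when clustered with these genes and 6 with doublets kept. Dll1, Hes1 and Hes5 kept it in all 4, and each of the other members changed in at least 1. For results that answer a comparison, 135 alternative values were the same, 25 moved and 1 reversed, and for single genes 95 were the same, 23 moved and 4 reversed.

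Levels resting on fewer than 20 UMIs, as for Jag1 and for ligands in small clusters, have intervals wide enough to hide differences of 2-fold. The text's intervals say nothing about variation between animals.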
